A study of Homo sapiens with 7 samples.

Results

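MYC is a transcription factor gene of chromosome 8 band q24, and the chromatin loops that H3K27ac HiChIP found at its promoter were described here in Ishikawa, T-47D and LNCaP cells. HiChIP joins DNA ends that lie close together in the nucleus and then enriches the joined fragments with an antibody, here against acetylated lysine 27 of histone H3 (H3K27ac), a mark of active promoters and enhancers. A loop is a pair of regions (anchors) joined by at least 3 sequenced read pairs. Loops were assigned to MYC when an anchor overlapped a 500 bp window centred on any of its 14 annotated start sites (GENCODE on GRCh37; gene ENSG00000136997.22_19, chromosome 8, 128747680 to 128755197, plus strand). This gave 89 of 354783 loops over the 3 lists, of which the Ishikawa list had 4 of 163530, the T-47D list 11 of 42027 and the LNCaP list 74 of 149226. Loops with both anchors within a 4 Mb window around the gene (chromosome 8, 127000001 to 131000000) were also taken, of which Ishikawa had 188, T-47D 96 and LNCaP 811.

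The study held 7 samples. Ishikawa, a human endometrial adenocarcinoma line, had 4, of which 2 were treated for 1 h with DMSO, the vehicle, and 2 for 1 h with 10 nM E2 (estradiol). T-47D, a breast carcinoma line, had 1 sample and LNCaP, a prostate carcinoma line, had 2, with no treatment given in the labels of either. Each line had 1 loop list and no value per sample, so no difference between lines could be tested against replicate error. Intervals below (95%, Wilson) cover counting error only. They take each read pair or loop as a separate draw, though read pairs of 1 loop and loops of 1 anchor are not independent. The lists summed to 1040329 read pairs in Ishikawa, with 351260 in T-47D and 1805322 in LNCaP. Restriction enzyme, shearing, sequencer, read length and sequencing depth differed between the Ishikawa libraries and those of T-47D and LNCaP. The study gives a greater depth per sample for Ishikawa. The enzymes differ in name, but all chromosome 8 anchor edges fell at GATC in each list. None of these differences can be told apart from that between Ishikawa and the other lines. The lines were checked by promoter loops of 8 marker genes, and all 8 had their highest share of the list's read pairs in the line they mark: PAX8, SOX17 and EMX2 in Ishikawa, GATA3, TRPS1 and PGR in T-47D, and KLK3 and HOXB13 in LNCaP.

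MYC drives cell growth and proliferation and is controlled by enhancers spread over a wide, gene-poor neighbourhood. Downstream of it lies PVT1, a long noncoding RNA gene whose promoter and body hold regulatory elements that can contact MYC. CASC11, an antisense noncoding gene, runs upstream from a start that lies within MYC. Farther upstream lies a gene desert with the noncoding genes CASC8, CASC19, PRNCR1, CCAT2 and PCAT1 and the retrogene POU5F1B. This region is known for inherited cancer risk and for tissue-restricted enhancers.

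The promoter of MYC was joined mostly to sites in PVT1 in Ishikawa and T-47D, and to both PVT1 and the upstream desert in LNCaP. MYC loops held 44 read pairs in the Ishikawa list, 79 in that of T-47D and 2183 in that of LNCaP. As a share of the list this was 42.3 per 1000000 read pairs (31.5 to 56.8) in Ishikawa, 225 (180 to 280) for T-47D and 1209 (1160 to 1261) for LNCaP, 3 intervals that do not overlap. As a share of chromosome 8 the same loops held 0.0992%, 0.379% and 2.46% of read pairs. Their share of the read pairs in the 4 Mb window was 3.29% in Ishikawa, against 8.92% in T-47D and 14.6% in LNCaP, so that the order of the lines was the same against each of the 3 totals.

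The anchors over the promoter were not alike. In Ishikawa the anchor ran from 128745772 to 128751047 (5.28 kb) and its overlap took in 13 of the 14 start site windows. In T-47D it was 2.01 kb wide, from 128749037 to 128751045, and took in 5, without the first start site of the gene. In LNCaP it ran from 128744368 to 128757028, 12.7 kb, and covered the whole gene. Each anchor also held the promoter of CASC11, whose values are therefore those of MYC. Ishikawa had another anchor over the 3′ part of MYC, from 128751796 to 128755992, with 7 partners and 47 read pairs, which touched no start site window and was not counted. Its partners included the PVT1 sites at 75.9 kb (19 read pairs), 138 kb (8) and 117 kb (5), the anchor over the first PVT1 start site (4) and an upstream site at 127823977 to 127835814 (3 read pairs), 918 kb from the first MYC start. When any anchor within 10 kb of the gene was counted, Ishikawa had 12 loops, T-47D 11 and LNCaP 74.

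**Figure D1:**
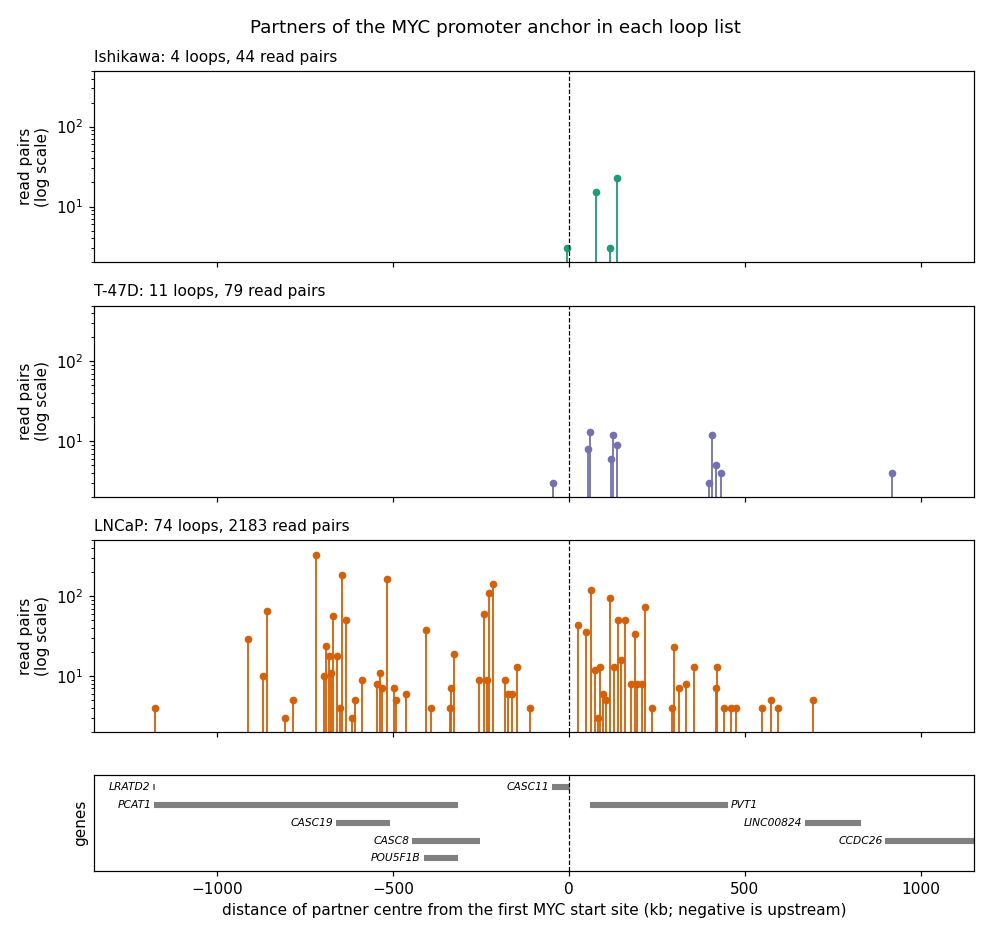
Each stem is a loop of the MYC promoter anchor, placed by the distance of its partner's centre from the first MYC start site (kb, negative is upstream) and with its read pairs on a log axis; grey bars are gene bodies. Ishikawa and T-47D each have 1 upstream partner, close to MYC, whereas LNCaP has 41 upstream partners reaching 1177 kb.

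In Ishikawa, the 4 partners lay close to MYC and 3 of them were in PVT1. The strongest, 138 kb downstream at 128870416 to 128900251, covered a PVT1 exon and an internal PVT1 start site and was joined by 23 read pairs. Of 14000 Ishikawa loops of similar span (from 0.8 times that distance to that distance divided by 0.8), 69 had more read pairs. The next, 75.9 kb downstream at 128810504 to 128836643 in PVT1, had 15 read pairs. The remaining downstream partner, at 117 kb (128860216 to 128869879, PVT1), and the upstream partner, at 6.87 kb (128738765 to 128742848, within CASC11), each had 3, the lowest count a loop can have. The Ishikawa list came in 4 parts, which nothing in the labels ties to a sample or treatment. Over parts 1 to 4 the strongest loop had 4, 0, 10 and 9 read pairs and the second 8, 0, 3 and 4, while each of the weak loops appeared in 1 part, with 3. A value of 0 means that the filtered part did not list the loop, and not that contact was absent. The part without any MYC loop was also the smallest, with 24190 loops against 56259 to 99915 in the others.

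In T-47D, 8 of 11 partners overlapped PVT1 and held 64 of the 79 read pairs (81.0%). They fell into a near and a far group. The near group held the anchor over the first PVT1 start site (128805821 to 128809361, 59.9 kb downstream, 13 read pairs), the sites at 120 kb (128865803 to 128868824, 6), 125 kb (128870413 to 128874429, 12) and 136 kb (128882637 to 128884288, 9), and an intergenic site at 53.6 kb (128800427 to 128802185, 8). The far group lay near the 3′ end of PVT1, between 398 and 432 kb downstream, where 4 partners had 3, 12, 5 and 4 read pairs in order of distance. The strongest of these 4, at 129150537 to 129156193 in an intron, had 12 read pairs, and 123 of 2934 T-47D loops of similar span had more. The farthest partner was in CCDC26, 918 kb downstream (129664771 to 129666200, 4 read pairs), and the only upstream partner was within CASC11 at 44.3 kb (128701680 to 128705168, 3 read pairs).

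In LNCaP, the 74 partners ran from 1177 kb upstream to 694 kb downstream, with a median distance of 374 kb against 96.6 kb in Ishikawa and 136 kb in T-47D. The strongest was 718 kb upstream, at 128021704 to 128037912, over a PCAT1 exon and start site, with 323 read pairs. None of 7251 LNCaP loops of similar span (median 4) had more. The second, 644 kb upstream at 128099170 to 128108200, overlapped PRNCR1 and introns of PCAT1 and CASC19 and had 184, and the third, over the CASC19 promoter at 519 kb (128224392 to 128233763), had 164. These 3 upstream noncoding gene sites made up 30.7% of the MYC read pairs of the list. A cluster of 3 intergenic sites between CASC8 and MYC had 141 (128527040 to 128534193, 217 kb upstream), 109 (128517385 to 128524862, 227 kb) and 60 read pairs (128502012 to 128510590, 241 kb).

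The other 4 of the 10 strongest LNCaP partners were the first PVT1 start site (128805646 to 128815437, 62.9 kb downstream, 118 read pairs), a PVT1 site at 116 kb (128856838 to 128869877, 96), the LINC02912 promoter inside PVT1 (128959995 to 128968793, 217 kb downstream, 73) and a PCAT1 promoter site 858 kb upstream (127887642 to 127891194, 66). The 10 together held 61.1% of the read pairs, and the other 64 loops had 57 or fewer, with a median of 8. Loops with 10 or more read pairs numbered 2 in Ishikawa, with 3 in T-47D and 35 in LNCaP.

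Sides differed between the lists. Upstream partners held 3 of 44 read pairs in Ishikawa (6.82%, 2.35 to 18.2), 3 of 79 in T-47D (3.80%, 1.30 to 10.6) and 1480 of 2183 in LNCaP (67.8%, 65.8 to 69.7). The LNCaP interval lies above both others, which overlap each other. Within LNCaP the upstream read pairs were not spread evenly. No partner lay within 100 kb upstream, 9 lay at 100 to 250 kb (357 read pairs), 9 at 250 to 500 kb (99) and 22 at 500 to 1000 kb (1020, or 46.7% of all MYC read pairs), followed by 1 at the LRATD2 promoter (4). Downstream partners held 232 read pairs within 100 kb, 366 at 100 to 250 kb, 87 at 250 to 500 kb and 18 beyond. Without its strongest loop, the upstream share in LNCaP was 62.2%.

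**Figure D2:**
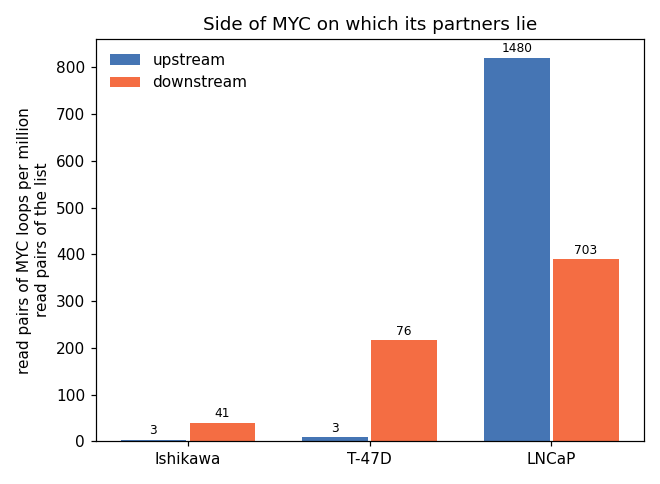
Bars give the read pairs of MYC loops per 1000000 read pairs of each list, split by the side of MYC on which the partner lies, and the numbers above them are the read pairs. The downstream bar is the taller in Ishikawa (41 against 3) and T-47D (76 against 3) and the upstream bar in LNCaP (1480 against 703).

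By gene body, PVT1 held 3 of 4 partners and 93.2% of the MYC read pairs in Ishikawa, 8 of 11 and 81.0% in T-47D, and 25 of 74 and 27.3% in LNCaP. PCAT1, whose annotation spans 863 kb, held 31 LNCaP partners (1114 read pairs, 51.0%). CASC19, inside it, held 11 (464), PRNCR1 2 (188), CASC8 6 (81) and POU5F1B 5 (72), and genes that overlap count the same partner more than once. No MYC partner of Ishikawa or T-47D touched any of these 5. MYC was the protein-coding gene with the nearest start for each Ishikawa and T-47D partner. In LNCaP it was nearest for 35 of 74 (720 read pairs), POU5F1B for 34 (1351) and LRATD2 for 5 (112). Distal partners, which overlap no protein-coding promoter window, were 4 of 4, 11 of 11 and 72 of 74.

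The lists were then set against each other. A MYC loop was called found when its partner overlapped a partner of the MYC promoter anchor in the other list by at least 1 bp. For the background, both anchors of a loop had to overlap those of a loop in the other list by at least 1 bp. Of the 4 Ishikawa loops, 2 were found in T-47D, against 5.4% of all protein-coding promoter loops of Ishikawa, and 3 in LNCaP, against 10.9%. Of the 11 T-47D loops, 3 were found in Ishikawa, against 10.3%, and 5 (45.5%, 21.3 to 72.0) in LNCaP, against 45.9%. Of the 74 LNCaP loops, 8 (10.8%, 5.58 to 19.9) were found in Ishikawa, against 7.37%, and 5 (6.76%, 2.92 to 14.9) in T-47D, against 15.6%. The share of T-47D loops found in LNCaP was near its background. The share of LNCaP loops found in T-47D was below its background, which lies outside the interval. That background was not matched for span. LNCaP partners lay at a median of 374 kb from MYC, against a median span of 113 kb over all LNCaP loops. The part of span in the lower share was not tested. For LNCaP loops in Ishikawa the 2 rules were unlike, since the Ishikawa anchor over the 3′ part of MYC could count only under the background rule. Its partners overlapped the LNCaP partners at 127834655 to 127838633 (3 read pairs in Ishikawa) and 128771727 to 128777627 (5), so the 8 would be higher under that rule. Some other rules moved some of these shares by more than 1.5 times, and the background was counted for the 1 bp rule alone. Other shares stayed, such as 50% of Ishikawa loops found in T-47D with partner centres within 10 kb. With partner centres within 10 kb, 10.8% of LNCaP loops were found in T-47D, and with 5 read pairs in both lists 71.4% of T-47D loops were found in LNCaP. The Ishikawa shares rest on 4 loops. Requiring 50% overlap of both anchors left 0 and 1 of the Ishikawa loops found in T-47D and LNCaP. Ishikawa partner anchors in PVT1 were up to 29.8 kb wide.

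When overlapping partners were merged over the lists, 76 sites resulted. Joined to MYC in each list were 3 sites, all in PVT1: 128805646 to 128838462, with 15 read pairs in Ishikawa, compared with 13 in T-47D and 146 in LNCaP, 128856838 to 128869879, with 3, 6 and 96, and 128870413 to 128900251, with 23, 21 and 79. At the first of these the Ishikawa and T-47D partners did not overlap each other, and both overlapped LNCaP partners. The 3 sites held 41 of 44 MYC read pairs in Ishikawa, against 40 of 79 in T-47D and 321 of 2183 in LNCaP. A PVT1 site 418 kb downstream was shared by T-47D (5) and LNCaP (7). Of the other sites, 65 were joined to MYC in LNCaP alone (1855 read pairs), 6 in T-47D alone (34) and 1 in Ishikawa alone (3).

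None of the 41 upstream LNCaP partners was joined to the MYC promoter anchor in another list, against 8 of 33 downstream partners in Ishikawa and 5 of 33 in T-47D. The upstream partners also lay farther from MYC (median 537 kb against 206 kb downstream), and the part of distance was not tested. Of these 41 sites, 18 overlapped an anchor of the Ishikawa list and 1, over the LRATD2 promoter, an anchor of the T-47D list. Ishikawa had 4745 anchors on chromosome 8 and T-47D 833. The share over all LNCaP anchors was not counted, so these overlaps are not read as particular to the sites. At the strongest site, over PCAT1, neither list had an anchor. The Ishikawa anchors at these sites numbered 15 and carried 27 loops with 141 read pairs, with a median span of 24.5 kb, and 1 of the 27 reached past the MYC start. That loop joined the site 918 kb upstream to the anchor over the 3′ part of MYC with 3 read pairs, and the site overlapped the LNCaP partner at 127834655 to 127838633, which had 29. A site absent from a list means that no loop there reached 3 read pairs and passed the study's filter, and not that contact was absent. In Ishikawa, each MYC loop listed in 1 of the 4 parts had 3 or more read pairs in that part. The limit may thus have acted on each part before summing, which would be stricter than in the other 2 lists. Expected MYC loops after thinning each list to the summed read pairs of the T-47D list were 2.0 in Ishikawa and 31.2 in LNCaP, beside 11 in T-47D. This thins read pairs of loops that had already been filtered and does not match sequencing depth.

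Among 20162 protein-coding genes, MYC ranked 3094th in Ishikawa by the number of distal anchors linked to its promoter (4), 66th in T-47D (11) and 2nd in LNCaP (72). In LNCaP it stood behind NAALADL2 alone, which had 74. The medians of genes with at least 1 linked anchor were 3, 2 and 4. The rank by linked distal anchors was tied with 1128 genes in Ishikawa and 25 in T-47D. The Ishikawa rank depends on the promoter window. A window of 2 kb took in the anchor over the 3′ part of MYC. It gave 8 linked anchors in Ishikawa, percentile 94.3 against 81.9, while T-47D and LNCaP stayed at 11 and 72. By read pairs of promoter loops the ranks were 3167, 1486 and 52, and by number of promoter loops 5200, 1157 and 43. MYC thus stood higher by linked distal anchors than by either of these in T-47D and LNCaP.

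**Figure D3:**
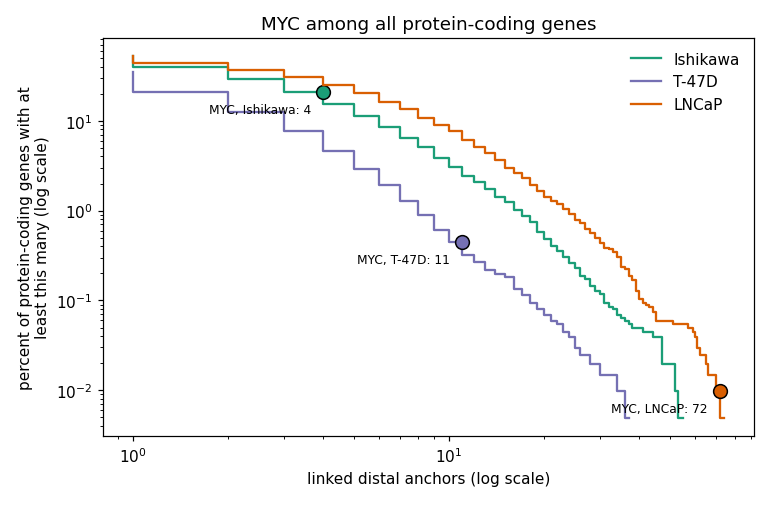
Lines give, for each list, the percent of protein-coding genes (log axis) with at least the number of linked distal anchors on the horizontal log axis, and circles mark MYC. MYC sits near the end of the line in LNCaP (72) and in the upper tail in T-47D (11), and among many genes in Ishikawa (4). Counts are for the 500 bp promoter window.

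The 4 Mb window around MYC differed between lists as well. It held 0.129% of all read pairs in Ishikawa, compared with 0.252% in T-47D and 0.826% in LNCaP. Loops per Mb were 47 in the window against 51.2 on the rest of chromosome 8 in Ishikawa, 24 against 14.2 in T-47D and 203 against 45.7 in LNCaP. In LNCaP the single Mb from 128 to 129 Mb held 723 loops and 14037 read pairs, the 2nd most loops and the 6th most read pairs of 2530 such bins with loops. The same Mb ranked 693rd by loops in Ishikawa (72) and 311th in T-47D (37). The MYC loops of LNCaP are thus part of a dense block, and DNA copy number was not measured in these files, so that its part in the read pairs was not tested.

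**Figure D4:**
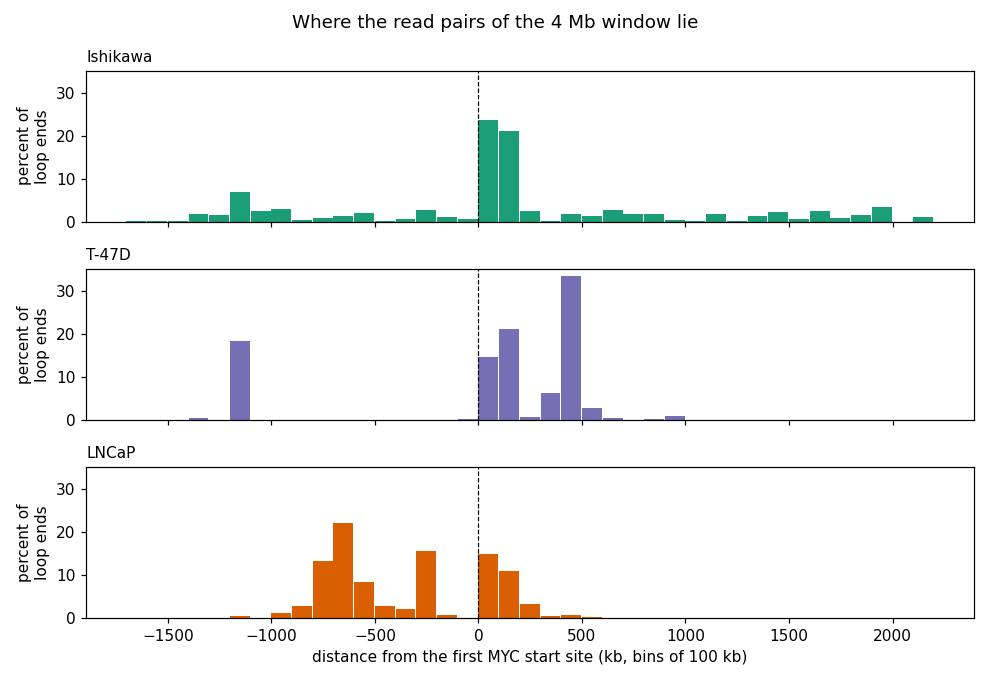
Bars give, for each 100 kb bin, the percent of all loop ends within the 4 Mb window, weighted by read pairs, against the distance from the first MYC start site (kb). LNCaP ends pile up between 800 and 500 kb and between 300 and 200 kb upstream and in the 200 kb after MYC. T-47D ends pile up in the 200 kb after MYC, between 400 and 500 kb downstream and between 1200 and 1100 kb upstream. Ishikawa ends pile up in the 200 kb after MYC. The bin from 0 to 100 kb also holds the ends at the MYC promoter anchor itself. These were 44 of 636 ends in Ishikawa, 79 of 258 in T-47D and 2183 of 4443 in LNCaP.

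MYC was not the most connected anchor of the window in any list. In Ishikawa it ranked 20th, with 4 partners, behind the PVT1 anchor at 128870416 to 128900251, which had 21 and 365 read pairs. In T-47D it shared rank 5 of 35 with 11 partners, behind the PVT1 intron anchor at 129150537 to 129156193, which had 21 and 278 read pairs. In LNCaP it was 2nd of 91 with 74, behind the PCAT1 anchor at 128021704 to 128037912, which had 75 and 3776 read pairs. The leading anchor in each list was a MYC partner.

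MYC partners were also joined to each other. Of the pairs that the partners could form, 4 of 6 were loops in Ishikawa, against 31 of 55 (56.4%) in T-47D and 681 of 2701 (25.2%) in LNCaP. In LNCaP, pairs on the same side of MYC were joined more often (36.4%) than pairs on opposite sides (14.0%), where the loop spans MYC. Ishikawa had 4 loops that passed over the MYC start without using its anchor (13 read pairs), T-47D had 5 (17) and LNCaP had 196 (1700). Pairs on opposite sides are also farther apart, and the part of distance was not tested.

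**Figure D5:**
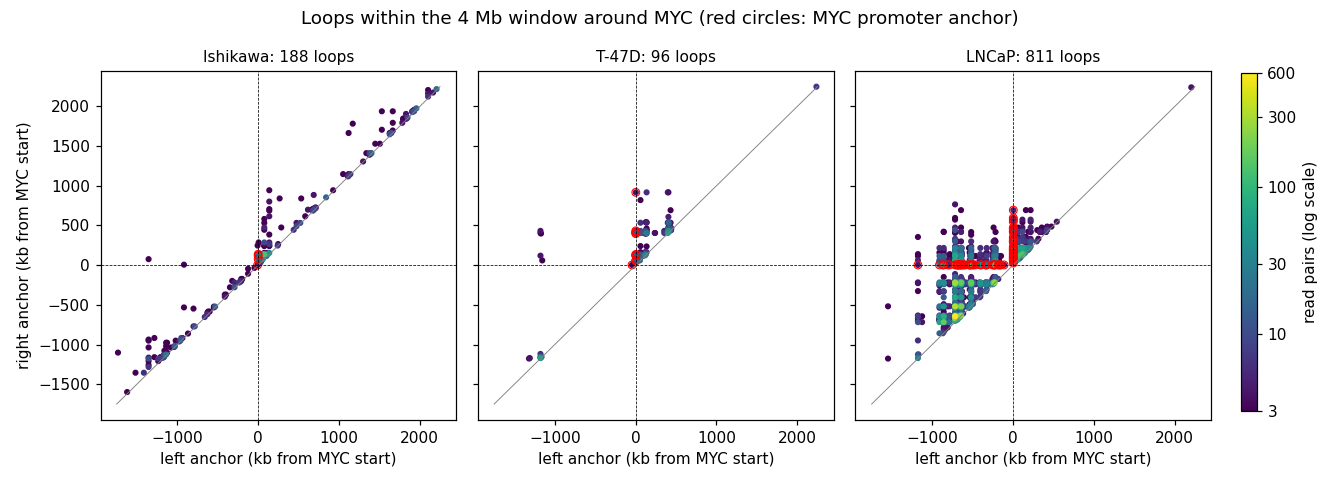
Each point is a loop of the 4 Mb window, with its left and right anchors in kb from the first MYC start site on the axes, coloured by read pairs on a log scale, and MYC loops are circled in red. Ishikawa loops (188) hug the diagonal, T-47D loops (96) gather downstream of MYC, and LNCaP loops (811) fill the block between 900 kb upstream and 500 kb downstream.

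The first PVT1 start site, whose promoter can compete with that of MYC for enhancers, had its own anchor in each list. In Ishikawa it had 7 loops and 89 read pairs and was not joined to the MYC promoter anchor, with 4 read pairs to the anchor over the 3′ part of the gene. In T-47D it had 14 loops and 120 read pairs, 13 of them to MYC, and 7 of its 13 other partners were also partners of MYC. In LNCaP it had 55 loops and 1103 read pairs, 118 of them to MYC, and 52 of its 54 other partners were also joined to MYC. Of its LNCaP loops, 27 (374 read pairs) reached sites upstream of MYC, against 1 (3) in T-47D and 0 in Ishikawa.

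Across all its start sites, PVT1 carried 38 loops with 501 read pairs in Ishikawa, 33 with 283 in T-47D and 153 with 2620 in LNCaP, more than MYC in each list. PCAT1 carried 13 loops in Ishikawa (72 read pairs), compared with 9 in T-47D and 181 in LNCaP (4836), the T-47D loops being those of LRATD2, a nearby protein-coding gene whose start site lies in the same anchor. LRATD2 itself had 5 loops with 34 read pairs in Ishikawa, the same 9 in T-47D and 17 with 107 read pairs in LNCaP. CASC19 had 6 loops (32 read pairs) in Ishikawa, against 0 in T-47D and 115 (2404) in LNCaP, and POU5F1B 3 (10), 0 and 33 (318). CASC8 (16 loops, 144 read pairs), CCAT2 (10, 67) and LINC02912 (46, 705) carried promoter loops in LNCaP alone. CCDC26 (6, 18), PRNCR1 (1, 6) and LINC00861 (3, 14) carried them in Ishikawa alone. LINC00824 had 2, 1 and 4. GSDMC, a pore-forming gasdermin, had 0 in each list. Of 32 genes with a start in the window, 16 had a promoter loop in Ishikawa, with 7 in T-47D and 12 in LNCaP. Most of these are noncoding genes, and the share over all genes of both types is not given here.

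MYC works with a network of partner and competitor proteins: MAX, its obligate dimer partner, the MXD proteins and MNT, which compete for MAX, and the related MLX branch. Of 13 such genes, 12 had a promoter loop in Ishikawa, compared with 12 in T-47D and 11 in LNCaP, with medians of 18, 21 and 99 read pairs. Over all 20162 protein-coding genes, 57.3%, 49.2% and 58.1% had a promoter loop. The medians of those with a loop were 21, 23 and 72 read pairs, whereas the medians of the 13 also count genes without one. MXI1 (115) and MLXIP (62) had more than MYC (44) in Ishikawa, MLX (169) had more than MYC (79) in T-47D, and none did in LNCaP, where MLX came nearest with 555. MAX had 12, 21 and 137 read pairs. The paralogs differed, since MYCN, the MYC paralog of neural tissues, had 29 in Ishikawa and 0 in both other lists, and MYCL had 0, 11 and 72.

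The genes nearest to MYC in read pairs per 1000000 over the 3 lists, by Euclidean distance of log2 values with 1 added, were PIPOX (0.15), SREBF1 (0.56), NAIF1 (0.71), GRB10 (0.76) and EEFSEC (0.84). PIPOX, an enzyme of sarcosine breakdown, had 39.4, 222 and 1300 read pairs per 1000000 in Ishikawa, T-47D and LNCaP. These 5 genes had fewer linked distal anchors than MYC in LNCaP, 19 to 37 against 72.

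Sequence at the partners was compared with that at all chromosome 8 anchors of the same list, in 5 kb at the anchor centre. The full estrogen response element (GGTCA and, after 3 bases, TGACC, a palindrome) was in 0 of 4 Ishikawa partners, 0 of 11 in T-47D and 1 of 74 in LNCaP, against 0.443%, 0.960% and 0.50% of anchors. The androgen counterpart (AGAACA and, after 3 bases, TGTTCT, also a palindrome) was in 0, 0 and 1, against 0.316%, 0% and 0.25%. A CTCF core motif, on either strand, was in 0, 0 and 2 partners, against 1.66%, 2.52% and 2.60%. The MYC anchor held 1 CTCF match in Ishikawa and in LNCaP, 1.33 kb upstream of the first start site, which the T-47D anchor does not reach. Median GC content was 46.5% at Ishikawa partners against 40.7% of anchors, 45.3% against 44.6% in T-47D and 41.8% against 41.3% in LNCaP.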

How the data were processed

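H3K27ac HiChIP was measured in 7 samples of 3 cell lines. According to the study's methods and the processing notes, the authors aligned reads to hg19 with HiC-Pro, called loops with hichipper and removed loops under 3 read pairs or above an FDR limit, and DMSO and E2 samples were combined. The deposited loop lists hold counts of read pairs per anchor pair, unnormalized. Ishikawa rows of the same anchor pair were summed over 4 parts, and rows joining an anchor to itself or anchors on different chromosomes were left out. The LNCaP list holds no self pairs, so the lists were not filtered alike. Anchors were set against GENCODE 44 lifted to GRCh37. All chromosome 8 anchor edges fell at GATC. Python 3.11.15, pandas 2.3.3, numpy 2.4.6, scipy 1.17.1 and matplotlib 3.10.9 were used, and the counting was tested on simulated data. Distances run from the first MYC start site to the partner's centre, and coordinates are 1-based on hg19. Named were MYC, genes of the window with promoter loops, the 10 strongest partners per list, the 5 genes nearest to MYC outside the window and a 13-gene MYC network list. Members and lists were chosen with earlier results of these data known. Alternatives were other read pair minimums, promoter windows, spans, overlaps and list totals. No sequence of chromosome 8 is printed. A further marker gene fixed for LNCaP is not reported here.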

Additional observations from a re-analysis of the deposited data

Results flagged for a closer look

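Rows that join an anchor to itself were outside the comparisons, and the MYC promoter anchor had such read pairs above the limit of 3 that a count of 0 allows: 4 in Ishikawa, in 1 of its 4 parts, and 7 in T-47D. The medians of anchors with self pairs were 6 and 11, and MYC stood at percentiles 38.2 and 35.8 of them. Passing the limit therefore does not set MYC apart from other anchors. The LNCaP list holds none for any anchor.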

How the results depend on the processing

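Under each of the alternatives run, LNCaP had the most MYC loops and the largest MYC share of read pairs, and its upstream share stayed above those of Ishikawa and T-47D. A minimum of 5 read pairs left 2 MYC loops in Ishikawa and 7 in T-47D, none of them upstream (0%), put the share of the LNCaP list at 0.133% and the Ishikawa percentile by linked anchors at 83.9, and left 74, 55 and 522 window loops in Ishikawa, T-47D and LNCaP. A minimum of 10 left 2, 3 and 35 MYC loops and 30, 26 and 306 window loops, with upstream shares of 0% in Ishikawa and T-47D, shares of the list of 0.00822% in Ishikawa and 0.151% in LNCaP, and percentiles of 93.1 in Ishikawa and 98.96 in T-47D. A 2 kb promoter window took in the second Ishikawa anchor and gave 11 loops, 0.00875% of the list and a percentile of 94.3. Using only the start of the gene record gave 0 loops in T-47D, whose anchor does not reach it. Thinning to the summed read pairs of the T-47D list gave 2.0 and 31.2 MYC loops and 51.0 and 255 window loops in Ishikawa and LNCaP. In Ishikawa, 2 MYC loops were in 2 or more parts. Spans of 20 kb to 1 Mb gave 0.00708%, 0.0331% and 0.161% of the list and an upstream share of 0% in Ishikawa. With chromosome 8 as the total the shares were 0.0992%, 0.379% and 2.46%. By number of loops the upstream share was 25.0% in Ishikawa and 55.4% in LNCaP. With distal meaning no promoter of any gene, the percentiles were 69.4, 99.3 and 99.95, and by read pairs 84.1, 92.6 and 99.7. At 50% overlap of both anchors, 0% and 25.0% of Ishikawa loops were found in T-47D and LNCaP, 0% and 9.09% of T-47D loops in Ishikawa and LNCaP, and 1.35% of LNCaP loops in each other list. At 5 read pairs in both lists 100% of the Ishikawa loops and 71.4% of the T-47D loops were found in LNCaP. With partner centres within 10 kb, 63.6% of T-47D loops were found in LNCaP, 10.8% of LNCaP loops in T-47D and 6.76% of LNCaP loops in Ishikawa. Chosen after seeing the data, any anchor within 10 kb of the gene gave 12 loops in Ishikawa, the window as the total gave 3.29%, 8.92% and 14.6%, LNCaP without its strongest loop had 62.2% upstream, and 20% and 11.4% of LNCaP loops with 10 or more read pairs were found in Ishikawa and T-47D. The cause of these changes was not tested.

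No paired analysis was possible because each line has 1 loop list and no value comes from a test. In Ishikawa and in T-47D the upstream share rests on a single loop of 3 read pairs of the promoter anchor.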

Other observations

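In T-47D, loops of the LRATD2 promoter anchor (127568984 to 127571827) passed over MYC without joining it. They reached the PVT1 sites that were also MYC partners, at 128865803 to 128868824 (4 read pairs), 129150537 to 129156193 (3) and 129177732 to 129182272 (4). The longest spanned 1610 kb. The strongest LRATD2 loop, to a PCAT1 intron at 127575128 to 127578092, had 64 read pairs. In LNCaP the LRATD2 promoter was joined to MYC itself, with 4 read pairs.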
